A study of Danio rerio with 2 samples.

Results

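The zebrafish genes vegfaa (identifier LL0000031832), vegfab (LL0000031833) and vegfc (LL0000031836) encode secreted ligands of the vascular endothelial growth factor (Vegf) family. They were taken by their symbols, each of which named a single row, and make up 3 of the 36351 gene rows. The question was which cell types, endothelial or not, expressed them. Cells positive for kdrl:mCherry were sorted by flow cytometry from embryos at 24 h post-fertilization (hpf), and 1 droplet library was sequenced for each genotype. The first library is labelled akt mutant and is called aktΔ/Δ here. These embryos carry the alleles akt1ya348, akt2ya349, akt3aya350 and akt3bya351, which bring an early stop codon into each of the 4 Akt genes. The second library is from wild-type (WT) embryos. Both share the kdrl:mCherry transgene, whose reporter is driven by regulatory DNA of the receptor gene kdrl. The sort was set to keep cells with reporter protein and not a random sample of the embryo. The mutants were made by CRISPR in fish that also carry a flt4:YFP transgene. No treatment was given, and how many embryos went into a library is not given in the sources used here.

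Vegf ligands bind receptor tyrosine kinases on endothelial cells. Vegfa binds Kdr and Kdrl, which carry the signal for angioblast migration, artery formation and sprouting, and also Flt1, which acts largely as a decoy. Vegfc is cut into its active form in the extracellular space and binds Flt4, and it is best known for sprouting from veins and for lymphatic vessels. vegfaa and vegfab are duplicates of the single mammalian VEGFA gene. In the zebrafish trunk, hedgehog protein from the notochord and floor plate is known to act upstream of vegfa in the somites.

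After filtering, 9462 aktΔ/Δ cells with 91735556 unique molecular identifiers (UMIs, counts of single captured RNA molecules) and 16398 WT cells with 128758331 UMIs remained. aktΔ/Δ cells were deeper, with a median of 8249 UMIs per cell against 5931 in WT. The files held 225 cell barcodes in both libraries. As a set, the messages of the Akt genes did not mark the library labelled akt mutant. UMIs do not read a stop codon, so that the label of the library rests on the submitters alone. akt2 had 8.76 UMIs per 1000000 UMIs (CPM) in aktΔ/Δ and 12.2 CPM in WT, and akt3b had 5.84 and 4.96 CPM. Thus akt2 was lower and akt3b higher in aktΔ/Δ, both beyond counting error. akt3a had 0.610 and 0.559 CPM, and akt1 had 2 and 4 UMIs. In pools of older whole embryos, the paper reports strongly reduced mRNA of every Akt gene by qRT-PCR. That differs from these sorted cells in age and material. The cells fell into 21 clusters, 8 of which were high in both kdrl and cdh5 and are called endothelial. They held 68.9% of aktΔ/Δ cells and 53.8% of WT cells, although the label calls all cells endothelial. The remaining 13 included erythroid-like, neutrophil-like, neural progenitor-like, muscle-like and epithelial clusters, which were named from marker genes. Among the 13 was also an unnamed cluster of low depth (median 683 UMIs in aktΔ/Δ and 878 in WT). Its kdrl level, 196 CPM in aktΔ/Δ and 246 CPM in WT, was near that of vein-like cells (206 and 273 CPM). Its leading genes included he1.2, ctslb and he1.1, and it reached 4 of 6 hatching gland markers. It is counted outside the endothelium here, and whether it held shallow endothelial cells was not tested. None of the 3 ligand genes was among the genes used for clustering.

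The level of a gene in a cluster is given as CPM of the UMIs summed over its cells in one library, with an exact 95% Poisson interval. With 1 library per genotype there is no replicate check and no test between the genotypes. All intervals cover counting error only, and the genotype cannot be told apart from the library. Free RNA adds UMIs to cells that do not express a gene. Erythroid-like cells, which had the deepest profiles of all (median 29228.5 UMIs in aktΔ/Δ and 20254 in WT), served to show that background. Levels are also given as UMIs per 1000 cells, the scale on which free RNA, present in every droplet, can be compared between cell types of unlike depth.

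vegfaa and vegfab were read mostly outside the endothelium, and vegfc mostly within it. Of all vegfaa UMIs, 20 of 89 (22.5%, 95% interval 14.3 to 32.6) in aktΔ/Δ and 24 of 157 (15.3%, 10.0 to 21.9) in WT came from endothelial clusters. Of all vegfab UMIs, 9 of 65 (13.8%, 6.53 to 24.7) in aktΔ/Δ and 11 of 103 (10.7%, 5.45 to 18.3) in WT did so. For vegfc the endothelial share was 2279 of 2429 UMIs (93.8%, 92.8 to 94.7) in aktΔ/Δ and 3339 of 3785 (88.2%, 87.1 to 89.2) in WT. The same clusters held 61.7% of all UMIs in aktΔ/Δ and 41.2% in WT. In both libraries the endothelial share of vegfaa and vegfab thus lay below that of all RNA, and that of vegfc above it. When a single UMI of kdrl or cdh5 was taken to mark an endothelial cell in place of the clusters, the share was larger for vegfaa (51.7% in aktΔ/Δ and 41.4% in WT) and vegfab (32.3% and 52.4%). By that definition most vegfaa UMIs in aktΔ/Δ and most vegfab UMIs in WT lay in marked cells. vegfaa in WT and vegfab in aktΔ/Δ kept a majority outside. The definition also takes in blood-like cells. A kdrl UMI was seen in 21.5% of erythroid-like and 33.6% of neutrophil-like aktΔ/Δ cells, and in 31.2% and 31.4% in WT.

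**Figure D1:**
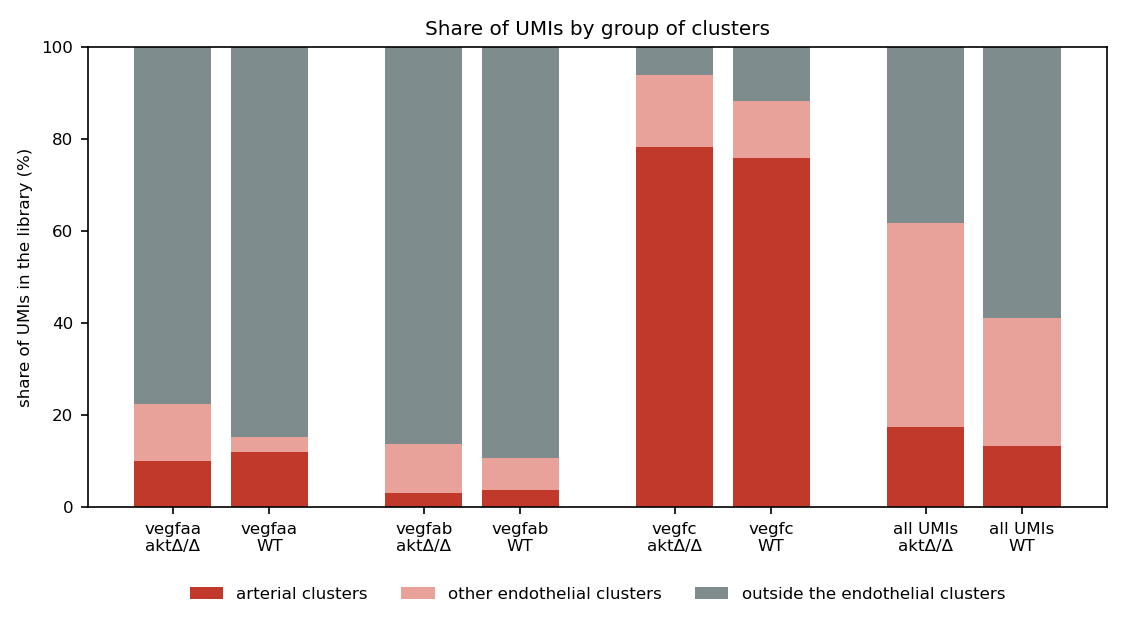
Share of UMIs (%, vertical axis) that lay in arterial clusters, other endothelial clusters and all other clusters, for vegfaa, vegfab, vegfc and all UMIs, with aktΔ/Δ left of WT in each pair. vegfc lies mostly in arterial clusters (78.2% in aktΔ/Δ and 75.9% in WT), which hold 17.6% and 13.3% of all UMIs, and vegfaa and vegfab lie mostly outside the endothelium.

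By the mean CPM of both libraries vegfaa was highest in the notochord-like, endoderm and epithelium-like and neural progenitor-like clusters and the one with fibroblast and neural crest markers. The leading genes of the endoderm and epithelium-like cluster include foxa2 and epcam, and it reached 8 of 9 markers of that list. It also reached 5 of 8 pronephros, 4 of 6 floor plate, 4 of 7 basal epidermis and 4 of 12 fibroblast markers. Its name thus does not stand for a single cell type. In this cluster 26 UMIs in aktΔ/Δ and 42 in WT gave 9.24 CPM (6.04 to 13.5) and 9.83 CPM (7.09 to 13.3). The 2 libraries overlapped closely there, and this cluster alone held 29.2% of vegfaa UMIs in aktΔ/Δ and 26.8% in WT, with 3.07% and 3.32% of all UMIs. The neural progenitor-like cluster had 23 vegfaa UMIs in each library, which gave 8.38 CPM (5.31 to 12.6) in aktΔ/Δ and 4.86 CPM (3.08 to 7.29) in WT. The notochord-like cluster, which expresses col2a1a and noto, had no vegfaa UMI in 19 aktΔ/Δ cells and 11 UMIs in 51 WT cells, or 32.5 CPM (16.2 to 58.1). The aktΔ/Δ count of 0 allows up to 30.7 CPM by the floor of 3 counts, and up to 37.8 CPM by the exact interval. Both limits lie within the WT interval, so that a difference was not detectable at this depth.

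Further clusters held fewer vegfaa UMIs in aktΔ/Δ than the endoderm and epithelium-like and the neural progenitor-like cluster. The cluster with fibroblast and neural crest markers had 5 UMIs (4.0 CPM) in aktΔ/Δ and 17 UMIs (7.29 CPM) in WT. Skeletal muscle-like cells had 2 and 14 UMIs, or 2.99 CPM in aktΔ/Δ and 5.32 CPM in WT. In WT both lay above the neural progenitor-like cluster, with overlapping intervals. Basal epidermis-like cells had 1 and 7 UMIs. The 21 clusters were ordered by the mean CPM of vegfaa over the libraries. Neighbours were said to overlap when the ranges of their 2 CPM values did, without regard to intervals. Only 1 of 20 neighbouring pairs did not overlap, the step from the endoderm and epithelium-like to the neural progenitor-like cluster. The Poisson intervals of these clusters overlapped in both libraries.

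Endothelial vegfaa did not stand above erythroid-like cells beyond counting error. The endothelial clusters had 0.353 CPM in aktΔ/Δ and 0.453 CPM in WT, against 1.97 and 1.76 CPM outside them. Per 1000 cells this was 3.07 UMIs (1.87 to 4.74) in aktΔ/Δ and 2.72 UMIs (1.74 to 4.04) in WT, while erythroid-like cells had 0 UMIs in 642 aktΔ/Δ cells, which allows a share of cells with a UMI of up to 0.467% by the floor of 3 counts and up to 5.75 UMIs per 1000 cells by the exact interval, and 3.06 UMIs per 1000 (1.12 to 6.67) in WT. All 44 endothelial cells with vegfaa held a single UMI of it. Outside the endothelium 134 of 163 positive cells held a single UMI, and the highest cell had 4.

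Within the endothelium vegfaa was not spread evenly. The arterial clusters had 9 vegfaa UMIs in aktΔ/Δ and 19 in WT, and the venous clusters, of similar summed depth, had 3 and 1. Per 1000 cells the arterial clusters reached 5.01 UMIs (2.29 to 9.52) in aktΔ/Δ and 7.07 UMIs (4.25 to 11) in WT, and the venous clusters 1.85 UMIs (0.382 to 5.42) and 0.415 UMIs (0.0105 to 2.31). The arterial and venous intervals did not overlap in WT and overlapped in aktΔ/Δ. The WT arterial interval overlapped that of WT erythroid-like cells.

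**Figure D2:**
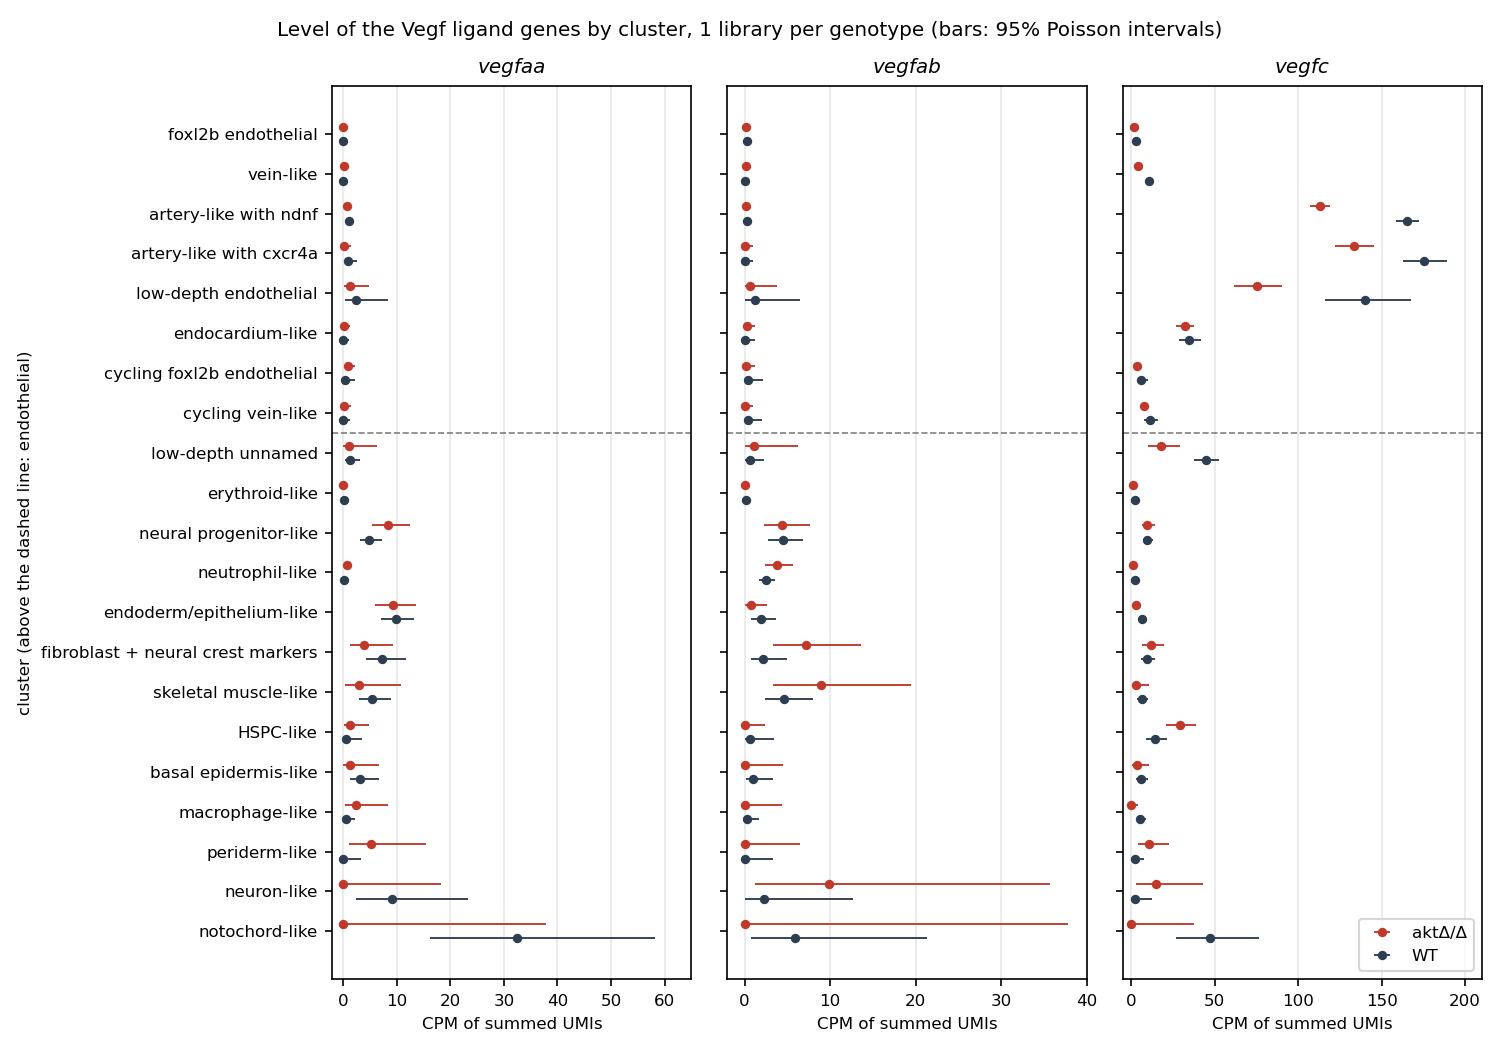
Level in CPM (horizontal axis, linear, with a scale of its own for each gene) of vegfaa, vegfab and vegfc in each cluster (rows), with the aktΔ/Δ library above the WT library and bars for 95% Poisson intervals. Endothelial clusters stand above the dashed line: vegfc peaks there in the arterial clusters at 113 to 176 CPM, while vegfaa and vegfab stand out only below it.

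vegfab was found in fewer UMIs and in partly other cells. Skeletal muscle-like cells, which express actc1b and mylpfa, had 6 UMIs (8.96 CPM, 3.29 to 19.5) in aktΔ/Δ and 12 UMIs (4.56 CPM, 2.36 to 7.96) in WT. Neural progenitor-like cells had 12 UMIs (4.37 CPM) in aktΔ/Δ and 21 UMIs (4.44 CPM) in WT, nearly the same level in both. The cluster with fibroblast and neural crest markers had 9 UMIs (7.19 CPM, 3.29 to 13.7) in aktΔ/Δ and 5 UMIs (2.14 CPM, 0.696 to 5.0) in WT. These intervals overlapped, and the cluster held too few vegfab UMIs for a ratio.

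The neutrophil-like cluster, with lyz, mpx and mmp13a, held the most vegfab UMIs of any cluster. It had 23 UMIs (3.75 CPM, 2.38 to 5.63) in aktΔ/Δ and 32 UMIs (2.49 CPM, 1.70 to 3.52) in WT, against 4 and 2 UMIs of vegfaa in the same cells. Per 1000 cells this was 82.1 vegfab UMIs in aktΔ/Δ and 41.7 in WT. Erythroid-like cells, of similar depth per cell, had 1.56 and 2.55 vegfab UMIs per 1000. A vegfab UMI was seen in 6.79% of neutrophil-like aktΔ/Δ cells (median depth 24193 UMIs) and in 3.65% of WT cells (17174 UMIs). After each cell was thinned to 1000 UMIs the shares were 0.369% (0.00934 to 2.04) and 0.134% (0.00338 to 0.742), which is too close to single UMIs to give an order. At a finer clustering most of these vegfab UMIs, 22 in aktΔ/Δ and 28 in WT, lay in clusters that came almost wholly from 1 library each, given among the other observations, so that the levels of vegfab compare partly unlike cells.

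Endothelial vegfab did not stand above erythroid-like cells. The endothelial clusters had 0.159 CPM in aktΔ/Δ and 0.207 CPM in WT, against 1.59 and 1.21 CPM outside them. Per 1000 cells they had 1.38 UMIs in aktΔ/Δ and 1.25 in WT, beside 1.56 and 2.55 in erythroid-like cells. The erythroid-like values rest on 1 UMI in 642 aktΔ/Δ cells and 5 UMIs in 1959 WT cells, too few to give an order. All 20 endothelial cells with vegfab held 1 UMI of it. The arterial cluster with cxcr4a had none in either library, and arterial and venous clusters did not stand apart, with 2 and 2 UMIs in aktΔ/Δ and 4 and 2 in WT.

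The duplicates thus differed in their share of the summed Vegfa message from cluster to cluster. Over all cells vegfab made up 42.2% (34.3 to 50.4) of vegfaa and vegfab UMIs in aktΔ/Δ and 39.6% (33.6 to 45.8) in WT. In the neutrophil-like cluster it made up 23 of 27 UMIs in aktΔ/Δ (85.2%, 66.3 to 95.8) and 32 of 34 in WT (94.1%, 80.3 to 99.3). In the endoderm and epithelium-like cluster it made up 2 of 28 in aktΔ/Δ (7.14%, 0.877 to 23.5) and 8 of 50 in WT (16%, 7.17 to 29.1). These clusters lay on either side of the whole-library share in both genotypes, with intervals that left it out. Neural progenitor-like cells (34.3% in aktΔ/Δ and 47.7% in WT) had intervals that held it. The counts compare 2 genes read by 3′ tags, whose capture may differ, but the same 2 genes are compared in every cluster. Outside the endothelium 2 of 57 vegfaa-positive aktΔ/Δ cells (3.51%) and 6 of 106 WT cells (5.66%) also had a vegfab UMI, against 1.46% and 0.978% of the remaining cells, which were shallower (median 5632 against 14977 UMIs in aktΔ/Δ and 7650 against 10012 in WT).

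**Figure D3:**
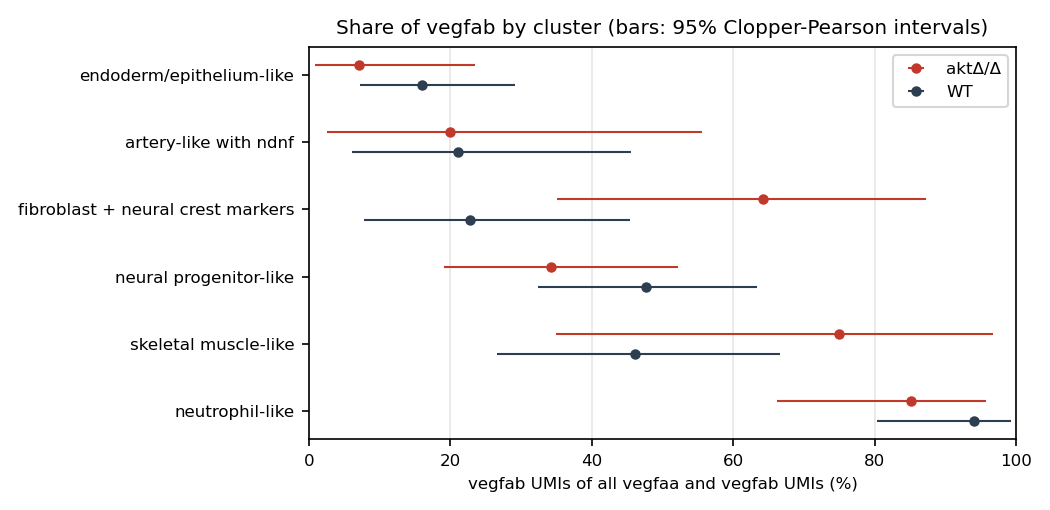
Share of vegfab among vegfaa and vegfab UMIs (%, horizontal axis) in clusters with at least 20 such UMIs over both libraries (rows), aktΔ/Δ above WT, with 95% Clopper-Pearson intervals. The endoderm and epithelium-like cluster lies at 7.14% and 16%, and the neutrophil-like cluster at 85.2% and 94.1%.

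The cells that carried vegfaa or vegfab outside the endothelium came from the sorted fraction. Whether each of them held reporter protein was not tested. The paper names notochord cells as an example of possible contaminants. Of the vegfaa-positive cells there, 21 of 57 in aktΔ/Δ and 38 of 106 in WT also had a UMI of kdrl or cdh5, and of the vegfab-positive cells 12 of 44 and 37 of 79. Among vegfaa-positive endothelial cells 19 of 20 in aktΔ/Δ and 23 of 24 in WT had one. Those clusters were chosen for high kdrl and cdh5, so that these counts say nothing of vegfaa. The share among cells without the ligand genes was not set beside them.

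vegfc was the only ligand gene of the 3 with a high level in endothelial cells, and it was an arterial gene there. The artery-like cluster with ndnf had 1378 UMIs (113 CPM, 107 to 119) in aktΔ/Δ and 2180 UMIs (165 CPM, 159 to 172) in WT. The artery-like cluster with cxcr4a had 522 UMIs (134 CPM, 122 to 146) in aktΔ/Δ and 692 UMIs (176 CPM, 163 to 189) in WT. A low-depth endothelial cluster that reached 8 of 9 artery markers and 5 of 8 vein markers had 110 UMIs (75.2 CPM) and 120 UMIs (140 CPM). The 2 artery-like clusters together held 78.2% of vegfc UMIs in aktΔ/Δ and 75.9% in WT. In them 903 of 1795 aktΔ/Δ cells and 1425 of 2689 WT cells had a vegfc UMI, and the highest cell had 12 UMIs in aktΔ/Δ and 13 in WT.

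The other endothelial clusters were far lower. Endocardium-like cells, which express nfatc1 and gata5, came next with 141 UMIs (32.1 CPM, 27.0 to 37.9) in aktΔ/Δ and 107 UMIs (34.7 CPM, 28.5 to 42) in WT. Vein-like cells had 57 UMIs (4.23 CPM, 3.20 to 5.47) in aktΔ/Δ and 155 UMIs (10.8 CPM, 9.15 to 12.6) in WT. The endothelial cluster led by foxl2b had 2.04 and 3.09 CPM. In the order of clusters by mean CPM, 2 of 20 neighbouring pairs did not overlap between libraries: the low-depth endothelial cluster stood above the endocardium-like one, and HSPC-like cells (hematopoietic stem and progenitor-like) above the cluster with fibroblast and neural crest markers.

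Artery and vein cells were also set by single-cell markers, with the marker genes the study names. Artery cells had at least 1 UMI each of notch3, efnb2a and dll4. Vein cells had at least 1 each of lyve1b, dab2 and stab2. Cells that met both definitions, 87 in aktΔ/Δ and 131 in WT, were kept apart and had 43.6 and 82.4 CPM of vegfc. In 401 aktΔ/Δ artery cells vegfc had 701 UMIs (145 CPM) and in 2138 vein cells 112 UMIs (4.75 CPM), a log2 ratio of artery to vein of 4.93 (4.64 to 5.23). In 487 WT artery cells it had 872 UMIs (216 CPM) and in 3107 vein cells 256 UMIs (11.6 CPM), a log2 ratio of 4.22 (4.02 to 4.43). vegfaa had 3 UMIs in artery and 3 in vein cells of aktΔ/Δ, and 7 and 5 in WT, too few for a ratio.

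Endothelial cells with vegfc carried arterial markers more often. In aktΔ/Δ, 77.2% of vegfc-positive endothelial cells had a dll4 UMI, against 41.5% of the remaining ones, and in WT 76.0% against 37.9%. A UMI of notch3 was seen in 42.3% against 13% in aktΔ/Δ and in 39.1% against 11.4% in WT. For flt4, which encodes the Vegfc receptor, the order was the opposite, with 47.2% against 65.4% in aktΔ/Δ and 45.1% against 61.6% in WT. Within the arterial clusters alone this order was absent, with 47.3% against 46.7% in aktΔ/Δ and 42.4% against 41.2% in WT. The vegfc-positive cells were slightly deeper (median 9201 against 8302 UMIs in aktΔ/Δ and 6428 against 5434.5 in WT).

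As a fraction of all UMIs, vegfc was lower in aktΔ/Δ than in WT endothelium. The endothelial clusters had 40.2 CPM in aktΔ/Δ and 63.0 CPM in WT, a log2 ratio of −0.65 (−0.72 to −0.57). A gene was called here when it was past 1.5-fold with an interval that left out equality, among genes with at least 20 UMIs over both libraries. vegfc was the 1 of 3 ligand genes called lower in the endothelial clusters, where 12.8% of all genes tested were called lower and 5.99% higher, so that a call of this size was common. vegfaa (log2 ratio −0.36, −1.29 to 0.56) and vegfab (−0.38, −1.83 to 1.02) were not called. In cells with a UMI of kdrl or cdh5, in place of the clusters, the vegfc ratio was −0.30 and no longer past 1.5-fold, while vegfab was past it at −1.05 (−1.85 to −0.29). Most vegfab-positive cells so marked, 12 in aktΔ/Δ and 37 in WT, lay outside the endothelial clusters, against 9 and 10 within. The value is thus not one of endothelial vegfab, and the share of all genes past 1.5-fold by that definition was not determined. The pooled ratio of vegfc also carries the mix of clusters. Arterial clusters held 17.6% of all UMIs in aktΔ/Δ and 13.3% in WT, and all endothelial clusters 61.7% and 41.2%. Within the arterial clusters the vegfc ratio was −0.51 (−0.59 to −0.42), short of 1.5-fold. The part of the mix in the pooled ratio was not tested.

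The CPM was lower in aktΔ/Δ in both artery and vein cells. The paper reports a decrease of vegfc in aktΔ/Δ artery cells and levels like those of WT in vein cells. The vein result here thus departs from the paper's. The paper compared single cells by a Mann-Whitney test, and its classes held other shares of the endothelial cells, so that the measures are unlike. In artery cells vegfc had 145 CPM in aktΔ/Δ and 216 CPM in WT, a log2 ratio of −0.58 (−0.72 to −0.43), just short of 1.5-fold and so not called, with 6.18% of all genes called lower and 6.02% higher. It passed 1.5-fold by a small margin without the cells of highest doublet score (−0.60), with TMM scaling (−0.60) and with at least 2 of the 3 markers (−0.59), so that the call in artery cells depends on these settings. In vein cells it had 4.75 CPM in aktΔ/Δ and 11.6 CPM in WT, a log2 ratio of −1.28 (−1.62 to −0.96), called lower, with 11.9% of all genes called lower and 5.36% higher. Of the 15 clusters with at least 20 vegfc UMIs, and UMIs in both libraries, 12 had a lower level in aktΔ/Δ, 6 of them beyond counting error. Among these were both artery-like clusters (log2 ratios −0.55 and −0.40), vein-like cells (−1.35) and the low-depth endothelial cluster (−0.90). The other 2 were the erythroid-like cluster (−1.24) and the low-depth unnamed cluster (−1.31), so that vegfc in the cells used to show free RNA was lower by about as much as in vein cells. Endocardium-like cells did not differ beyond counting error (−0.11, −0.49 to 0.26).

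**Figure D4:**
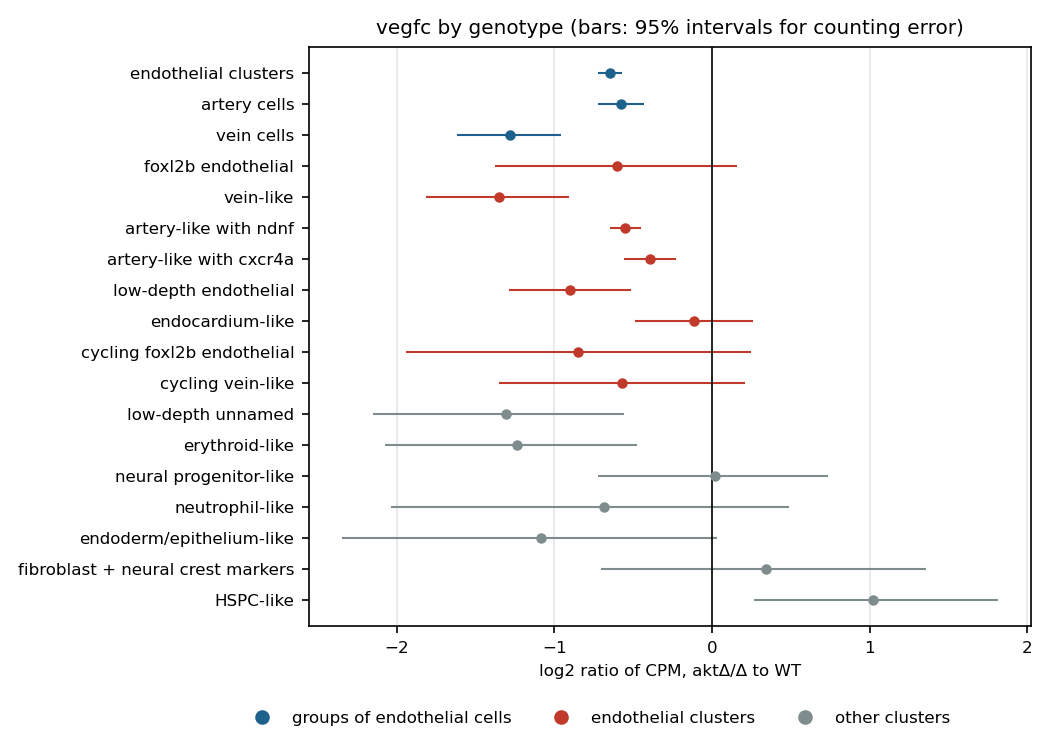
Log2 ratio of vegfc CPM in aktΔ/Δ to WT (horizontal axis) in all endothelial clusters together, artery cells and vein cells, and in each cluster with at least 20 vegfc UMIs and UMIs in both libraries (rows), with 95% intervals for counting error. The ratio is −0.65 for the endothelial clusters and −1.28 for vein cells, and 1.02 in HSPC-like cells.

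Counted per cell, the arterial level of vegfc did not differ between the libraries beyond counting error. The artery-like clusters had 1059 vegfc UMIs per 1000 cells (1011 to 1107) in aktΔ/Δ and 1068 (1029 to 1108) in WT. Artery cells had 1748 UMIs per 1000 (1621 to 1882) in aktΔ/Δ and 1791 (1674 to 1913) in WT. The lower CPM thus came with more UMIs of all other genes per cell: the median depth of the artery-like clusters was 8401 UMIs in aktΔ/Δ and 5765 in WT. Deeper sequencing and more RNA per aktΔ/Δ cell cannot be told apart in these libraries. In vein cells vegfc was lower on both scales, with 52.4 UMIs per 1000 (43.1 to 63.0) in aktΔ/Δ and 82.4 (72.6 to 93.1) in WT. There it lay just above the erythroid-like mean of 26.5 (15.4 to 42.4) in aktΔ/Δ and 45.4 (36.5 to 55.9) in WT. That mean is not an even floor. At the finer clustering, WT erythroid-like cells led by hemgn had 27 vegfc UMIs in 1213 cells (1.06 CPM, 0.695 to 1.54). Those led by zgc:195170 had 62 in 752 (5.46 CPM, 4.18 to 6.99). In aktΔ/Δ the counts were 8 in 287 and 9 in 355 cells. How much of this was free RNA was not tested.

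At a fixed depth the share of arterial cells with a vegfc UMI was slightly lower in aktΔ/Δ, with intervals that overlapped those of WT. In the artery-like cluster with ndnf, 51.1% of aktΔ/Δ cells and 55.6% of WT cells had a vegfc UMI. After thinning to 1000 UMIs, with 72 and 55 shallower cells left out, these were 13.5% (11.5 to 15.6) in aktΔ/Δ and 16.1% (14.4 to 17.9) in WT. In the cluster with cxcr4a the unthinned shares were 48.6% and 47.5%, and the thinned shares 13.3% (10.6 to 16.5) in aktΔ/Δ and 15.9% (13.4 to 18.6) in WT. In vein-like cells 3.75% and 5.99% had a vegfc UMI before thinning, and 0.470% (0.173 to 1.02) and 1.42% (0.951 to 2.03) after it. The unthinned share in erythroid-like cells was 2.18% in aktΔ/Δ and 2.96% in WT. The CPM ratio of vegfc was also taken with both libraries thinned to equal depths. Thinning keeps a gene's expected share of the UMIs in each cell. Such a ratio thus moves only with the weight and choice of cells, and is no separate check of the lower CPM. The mean log2 ratio of 20 draws was −0.50 in artery cells, −0.58 in the endothelial clusters and −1.27 in vein cells. In each of these groups the counting interval held 0 in 0 of 20 draws, which reuse the same cells and add no support.

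**Figure D5:**
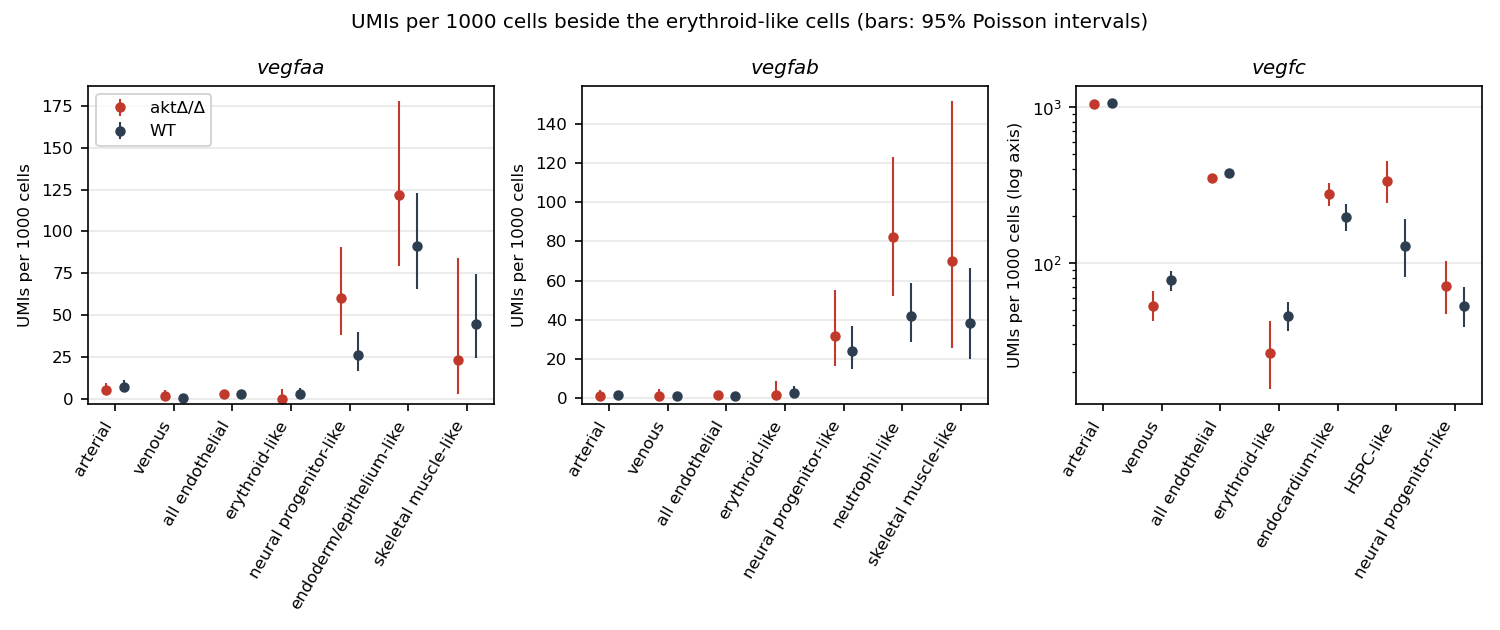
UMIs per 1000 cells (vertical axis, logarithmic for vegfc) of each ligand gene in arterial, venous and all endothelial clusters, in erythroid-like cells as a view of free RNA, and in 3 other clusters for each gene, aktΔ/Δ left of WT, with 95% Poisson intervals. Endothelial vegfaa and vegfab (1.25 to 3.07 UMIs) have intervals that overlap those of erythroid-like cells (0 to 3.06 UMIs), and arterial vegfc lies at 1059 in aktΔ/Δ and 1068 in WT.

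Outside the endothelial clusters vegfc was low. There it had 150 UMIs (4.27 CPM) in aktΔ/Δ and 446 UMIs (5.89 CPM) in WT, a log2 ratio of −0.46 (−0.74 to −0.19), which was not called. None of the 3 ligand genes was called outside the endothelium, where 12.9% of all genes were called lower and 6.07% higher: vegfaa had a log2 ratio of 0.16 (−0.28 to 0.59) and vegfab of 0.39 (−0.11 to 0.89). Among cells with no UMI of kdrl or cdh5, in place of the clusters, vegfab had a log2 ratio of 0.76 (0.14 to 1.38), past 1.5-fold. The share of all genes past it in those cells was not determined. Without the low-depth unnamed cluster and the erythroid-like cluster (left out after seeing the data) the ratio of vegfc was 0.14 (−0.20 to 0.47). These clusters held 16 and 17 vegfc UMIs in aktΔ/Δ and 142 and 89 in WT. The direction also turned at a minimum of 500 genes per cell (0.065) and with free RNA subtracted (0.61). Of the vegfc-positive cells outside the endothelium 42% in aktΔ/Δ and 52.4% in WT had a kdrl UMI, against 18.4% and 25.3% of the remaining cells. The remaining cells were shallower (median 5762 against 13382 UMIs in aktΔ/Δ and 7692.5 against 8321 in WT), and these shares were not set at equal depth.

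Few non-endothelial clusters held vegfc above the erythroid-like level beyond counting error. Of 12 others, 8 in aktΔ/Δ and 9 in WT had more vegfc UMIs per 1000 cells than erythroid-like cells. In each library 3 had an interval above that of erythroid-like cells, and only HSPC-like cells did so in both. The HSPC-like cluster, with myb, runx1 and gata2b, had 44 UMIs (29.1 CPM, 21.1 to 39.0) in aktΔ/Δ and 23 UMIs (14.3 CPM, 9.08 to 21.5) in WT, a log2 ratio of 1.02 (0.26 to 1.82). It was the 1 cluster with a vegfc level higher in aktΔ/Δ beyond counting error. Nearly all of these UMIs, 42 of 44 and 23 of 23, lay in cells that also had a UMI of kdrl or cdh5. Most cells of the cluster had such a UMI, 92 of 131 in aktΔ/Δ and 113 of 179 in WT. Neural progenitor-like cells had 27 UMIs (9.84 CPM) in aktΔ/Δ and 46 UMIs (9.72 CPM) in WT. Notochord-like cells had 0 UMIs in 19 aktΔ/Δ cells and 16 UMIs (47.3 CPM) in 51 WT cells, too few for a ratio. The count of 0 has the same upper limits as that of vegfaa in these cells.

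For vegfaa the non-endothelial clusters above the erythroid-like interval were 4 of 12 in aktΔ/Δ and 7 of 12 in WT. The neural progenitor-like, endoderm and epithelium-like, and fibroblast and neural crest marker clusters were among them in both. For vegfab they were 4 of 12 in each library, of which neural progenitor-like, neutrophil-like and skeletal muscle-like cells were shared. A count of 1 or 2 UMIs in the smaller aktΔ/Δ clusters leaves such an interval wide.

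The genes most alike in pattern were sought over the 21 clusters by the correlation of log2(CPM + 1), taking the lower of both libraries, among 10764 genes with at least 200 UMIs in each. For vegfc they were si:ch211-263k4.2 (0.87), the decoy receptor gene flt1 (0.87), tspan18a (0.85), the arterial ephrin ligand gene efnb2a (0.81) and emilin2a (0.80). For vegfaa they were cyp27c1 (0.74), the homeobox gene meis1a (0.72), sulf1 (0.67), the homeobox gene six1b (0.67) and ppa1b (0.67). For vegfab they were ppm1la (0.72), metap1 (0.72), timm9 (0.69), phlda1 (0.68) and slc1a4 (0.68). vegfaa itself (89 UMIs in aktΔ/Δ and 157 in WT) and vegfab (65 and 103) fell below the floor of 200 UMIs. Their lists thus rest on few UMIs per cluster and do not show a shared pattern. With a pseudocount of 10 in place of 1, the top 5 kept si:ch211-263k4.2, flt1 and tspan18a for vegfc, but 1 gene for vegfaa (meis1a) and 1 for vegfab (metap1). The clusters of a library share its depth and free RNA, and these correlations are a description. vegfaa and vegfab correlated with each other at 0.30 in aktΔ/Δ and 0.82 in WT over the clusters, and neither correlated with vegfc beyond ±0.12.

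Other Vegf ligand genes were also sparse in endothelial cells. pgfb, which encodes a placental growth factor, had 0.583 CPM in aktΔ/Δ and 1.02 CPM in WT endothelium, and was highest in notochord-like cells (27.5 CPM over both libraries). All of its notochord-like UMIs came from WT, with 12 UMIs (35.4 CPM) there and 0 in the 19 aktΔ/Δ cells. vegfd, a relative of vegfc, had 0.114 CPM in aktΔ/Δ and 0.489 CPM in WT outside the endothelium, called lower, and was highest in the cluster with fibroblast and neural crest markers (5.30 CPM). The receptor gene flt1 was highest in the artery-like cluster with cxcr4a, as vegfc was, and flt4 in cycling vein-like cells. Of the genes for processing of Vegfc, ccbe1 (a secreted cofactor) had 9.37 CPM in aktΔ/Δ and 6.55 CPM in WT venous clusters against 2.73 and 3.04 CPM in arterial ones. In cells set by markers ccbe1 showed no such order in aktΔ/Δ, with 4.67 CPM in vein and 4.95 CPM in artery cells, and in WT it had 4.83 and 0.991 CPM. adamts3 (a protease) did not exceed 1.49 CPM in either library in artery, vein or all endothelial cells.

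Of 42 Vegf pathway genes listed by role, the 3 ligand genes among them, 39 were in the files. In the endothelial clusters 33 had at least 20 UMIs, of which 5 were called lower (vegfc, pgfb, epas1a and shha among them) and 0 higher, beside 12.8% of all genes called lower. The call of shha rests on very few UMIs near that floor, with 0.0883 CPM in aktΔ/Δ and 0.283 CPM in WT. The median log2 ratio of the listed genes was −0.12, beside −0.09 for all genes. Outside, 7 of 37 were called lower (vegfd, kdrl, flt1, nrp1a, ccbe1, epas1a and epas1b) and 1 higher (shhb), beside 12.9% of all genes called lower, with a median of −0.14 beside −0.06. In artery cells 0 of 27 were lower and 1 (ccbe1) higher, beside 6.18% of all genes lower, with a median of −0.07 beside 0.02. In vein cells 3 of 30 were lower (vegfc and epas1a among them) and 1 higher (epas1b), beside 11.9% of all genes lower, with a median of −0.17 beside −0.09. Among the genes upstream of vegfa, shha, which encodes a hedgehog ligand, was highest in notochord-like cells (404 CPM over both libraries), where WT vegfaa was also highest. The hypoxia regulator gene hif1ab, whose protein acts on vegfa transcription, had 43.7 CPM in aktΔ/Δ and 46.1 CPM in WT endothelium, and the core signalling genes plcg1, pik3ca, mapk3 and kras were not called in any of the 4 groups of cells.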

How the data were processed

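The authors deposited, for each library, an unnormalized matrix of UMI counts from Cell Ranger 5.0.0 (per the labels, which also name Seurat). Which genome and annotation were used is not given in the sources used here. Symbols of the feature tables named the genes (216 symbols are duplicated, none of a ligand gene studied here). A minimum of 200 genes per cell and 3 cells per gene left 25860 cells and 26130 genes, with clusters from Seurat 5.3.0 (R 4.3.3, 2000 variable genes, 30 principal components, resolution 0.6, no integration). Endothelial clusters had mean kdrl and cdh5 above the mean of all clusters. Names came from marker lists (at least 3 markers 2-fold above the other cells). Doublets were scored with Scrublet in scanpy 1.11.5 and kept. Levels are CPM of summed UMIs. Shares have Clopper-Pearson and levels Poisson intervals (95%), and ratios have intervals from the binomial split of the UMIs. Python 3.11.15, numpy 2.4.6, scipy 1.17.1 and edgeR 4.0.16 (TMM factors only) were used. Only the intervals and calls of the ratios were tested on simulated data, which held counting error and no spread between libraries. The genes named are the 3 ligand genes, the 5 most alike to each, and the pathway list by role, 1 gene of which is not reported here. The ligand genes and the lists were chosen with earlier results of these data known. Alternatives were other clusterings and definitions, doublet removal, free RNA subtraction, TMM scaling and equal depths. UMIs per 1000 cells, the finer clusters and the removal of low-depth or erythroid-like clusters were chosen after seeing the data.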

Additional observations from a re-analysis of the deposited data

Results flagged for a closer look

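vegfc in the HSPC-like cluster stood out because its ratio between the genotypes ran against that of the endothelium. The log2 ratio of aktΔ/Δ to WT was 1.02 (0.26 to 1.82) there, with 44 UMIs in 131 aktΔ/Δ cells and 23 UMIs in 179 WT cells, against −0.65 in the endothelial clusters. The difference between the 2 ratios was not tested, since each genotype has 1 library. Without the cells of highest doublet score it was 1.43 (0.50 to 2.45), after subtraction of free RNA 1.53, and among cells with kdrl or cdh5 0.82 (0.06 to 1.62). These alternatives were chosen after seeing the data.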

How the results depend on the processing

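The alternatives gave 113 values for 17 shares and ratios. Of these 79 stayed within the counting interval of the value reported, 32 left it and 2 reversed. The intervals of vegfaa and vegfab are wide. The vegfab ratio was −1.05 in cells with a UMI of kdrl or cdh5 and 0.76 in cells without, both past 1.5-fold. Most vegfab-positive cells with such a UMI lay outside the endothelial clusters. The vegfaa ratio outside the endothelium was 0.44 with free RNA subtracted and 0.46 at equal depths. Of 31 genotype ratios of vegfc, 26 were below 0, and the others were the 2 reversed ones and 3 in HSPC-like cells. The vegfc ratio outside the endothelium, −0.46, reversed to 0.065 at a minimum of 500 genes and to 0.61 with free RNA subtracted. It moved to −0.092 at resolution 0.8, −0.16 with 15 components, −0.15 with endothelial cells set by a UMI of kdrl or cdh5, −0.081 without high doublet scores, −0.10 without low-depth clusters (chosen after seeing the data) and −0.16 at equal depths. The endothelial share of vegfc in aktΔ/Δ moved to 91.1% at 500 genes and 91.0% at resolution 0.8, 96.1% with kdrl or cdh5, 94.8% without doublets and 96.7% with free RNA subtracted. In WT it moved to 86.9% at resolution 0.8, 91.8% with 15 components, 94.7% with kdrl or cdh5, 92.4% without doublets, 96.6% with free RNA subtracted and 91.4% without low-depth clusters. With kdrl or cdh5 the shares of vegfaa were 51.7% in aktΔ/Δ and 41.4% in WT, and those of vegfab 32.3% and 52.4%, so that the majority turned for vegfaa in aktΔ/Δ and vegfab in WT. That definition also takes in many erythroid-like and neutrophil-like cells. With free RNA subtracted the vegfaa share was 22.5% in aktΔ/Δ, as reported, and −2.85% in WT. The vegfab shares were −2.31% in aktΔ/Δ and −18.9% in WT. In these 3 negative cases more endothelial UMIs were subtracted than were counted, so that no share can be read from them. The background came from few erythroid-like UMIs, 0 of vegfaa in aktΔ/Δ and 6 in WT, and 1 and 5 of vegfab. For vegfc in WT it differed between the erythroid-like subclusters, so that the subtracted values of vegfc rest on an uneven background. The vegfc ratio between genotypes moved to −0.30 in cells with kdrl or cdh5, and to −0.71 in vein cells set by at least 2 of 3 markers. The artery to vein ratio was 5.33 in aktΔ/Δ and 4.61 in WT without doublets, 3.42 and 3.30 with at least 2 of 3 markers, and 4.57 and 3.95 between clusters. The cause of these moves was not tested. Clusters with under 20 UMIs of a ligand gene give no order.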

Other observations

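At a finer clustering (resolution 1.5, chosen after seeing the data) vegfaa in neural progenitor-like cells lay in 1 of their 2 subclusters. The one with elavl3, dlb and ascl1a, genes of cells that begin to form neurons, had 22 vegfaa UMIs in aktΔ/Δ (11.9 CPM) and 22 in WT (6.89 CPM), against 1 and 1 UMIs in the one with fabp7a and sox3. vegfab followed, with 11 and 18 UMIs in the first and 1 and 3 in the second. vegfc in the artery-like cells with ndnf was highest in the subcluster led by cldn5a, vegfc itself and dhrs3b (166 CPM in aktΔ/Δ and 231 CPM in WT) and lowest in one led by CABZ01030107.1 and cavin1b (72.1 and 93.3 CPM). A small subcluster of 35 cells with atp1a1a.4 had 1 vegfaa UMI in 6 aktΔ/Δ cells and 5 in 29 WT cells.

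vegfab in neutrophil-like cells lay in subclusters that came almost wholly from 1 library each. One held 129 aktΔ/Δ and 2 WT cells with 22 and 0 vegfab UMIs (6.0 CPM in aktΔ/Δ), and another, led by npsn and lyz, held 1 aktΔ/Δ and 436 WT cells with 0 and 28 UMIs (3.37 CPM in WT). Another, found in both libraries, had 1 and 4 UMIs.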
